A study of Mus musculus with 8 samples.

Results

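The genes described here are 4 genes of ketone body synthesis and export, the mitochondrial enzyme genes *Acat1* and *Bdh1* and the monocarboxylate transporter genes *Slc16a1* and *Slc16a6*. They were taken by symbol from the 55416 genes of the expression table, and all 4 reached the level needed for testing. RNA was sequenced from 8 mouse liver samples. The 4 floxed controls (labelled Alb-cre-) carried loxP-flanked *Smpd3* without Cre recombinase. In the 4 knockouts (Alb-cre+), Cre driven by the albumin gene's promoter removed *Smpd3* in hepatocytes. Whether *Smpd3* was also removed in other liver cells was not tested. Every animal had received the HFMCD diet for 9 weeks as a model of steatohepatitis (MASH), so the comparison is between genotypes on 1 diet, without a group on another diet. Cre itself was absent from the controls, so an effect of Cre cannot be told apart from one of losing *Smpd3*. The labels give no strain, age or sex, and they do not tie libraries to separate animals. The p-values therefore reflect only how far these samples spread, which may be technical.

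Ketone bodies are fuels that hepatocytes make in their mitochondria from the acetyl-CoA released by fatty acid oxidation, and that other organs burn during fasting. The mitochondrial acetyl-CoA acetyltransferase encoded by *Acat1* joins acetyl-CoA units to acetoacetyl-CoA and also works in the opposite direction and in isoleucine breakdown. Further steps yield acetoacetate, and the 3-hydroxybutyrate dehydrogenase encoded by *Bdh1* interconverts acetoacetate and 3-hydroxybutyrate. Ketone bodies cross the plasma membrane through proton-coupled monocarboxylate transporters such as MCT1, the product of *Slc16a1*, and *Slc16a6* encodes MCT7, a related transporter linked to the export of 3-hydroxybutyrate from hepatocytes. The liver lacks an effective ketone-using transferase, so it exports the ketone bodies it makes.

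Values are in TPM, a unit that corrects for gene length and expresses each transcript as a share of its library, so that the sequencing depth is not known. Log2 fold changes were computed from log2(TPM + 1) as knockout minus control, and the added 1 makes the change of low genes look smaller than it was. Of the 12710 genes tested in limma, 13 (0.102%) passed a Benjamini-Hochberg adjusted p of 0.05. *Smpd3* (ENSMUSG00000031906) was one of them and fell, with 6.38 to 12.54 TPM across the controls against 1.17 to 3.03 TPM across the knockouts. This call was lost in 7 of 18 alternative fits, with an adjusted p of up to 0.167 in limma, namely without a filter on low values, with the replicate number as a block, and on leaving out floxed control 1 or 2 or knockout 1, 3 or 4. The 8 hepatocyte markers, *Alb* and *Apoa1* among them, summed to 67560 to 80090 TPM in the controls and 60120 to 68574 TPM in the knockouts, so the libraries had the profile of liver. The knockout mean was the lower one for 8 of these 8 markers, and their part in the results was not tested. It was also the lower one for 8 of 8 endothelial and 7 of 9 Kupffer cell and macrophage markers. The counts were 2 of 8 for stellate cells, 0 of 5 for bile duct cells and 0 of 6 for T and NK cells. They were 2 of 5 for B and plasma cells and 3 of 5 for neutrophils. Floxed control 4 stood apart in markers of other cells. It had the lowest summed level of the controls in 7 of 7 marker lists for endothelial, Kupffer, stellate, bile duct, T and NK, B and plasma cells and neutrophils, and the lowest of all 8 libraries in 6. Its endothelial markers summed to 52.07 TPM, against 117 to 145 TPM in the other controls and 68.76 to 93.64 TPM in the knockouts.

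None of the 4 genes differed between the genotypes beyond the spread between libraries. In limma, 0 of 4 passed an adjusted p of 0.05, against 0.102% of all tested genes, and 0 of 4 had an unadjusted p under 0.05, against 8.02% of all tested genes. The groups overlapped in all 4 genes, whereas they did not overlap in 4.74% of all tested genes. The mean level in the knockouts was 99.7% of that in the controls for *Acat1*, 98.2% for *Bdh1*, 110% for *Slc16a1* and 113% for *Slc16a6*. The median log2 fold change of the 4 genes was 0.06, beside 0.05 for all tested genes. In bulk liver RNA, fewer cells of a type and less RNA per cell cannot be told apart.

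*Bdh1* (ENSMUSG00000046598) was the most abundant of the 4. Its level was 330.32, 322.12, 273.16 and 304.39 TPM in floxed controls 1 to 4 and 281.48, 324.09, 309.38 and 293.11 TPM in knockouts 1 to 4. Floxed control 3 was the lowest library and floxed control 1 the highest, so that every knockout lay inside the range of the controls. The control mean was 307 ± 25.3 TPM and the knockout mean 302 ± 18.6 TPM (SD; n = 4 in each). The log2 fold change was -0.02 ± 0.08 (SE), with an adjusted p of 0.985 in limma, and a 2-sided exact permutation test over the 70 assignments of 4 against 4 gave p = 0.771. The 95% interval of the fold ran from 0.868 to 1.11.

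*Acat1* (ENSMUSG00000032047), which is not the cholesterol-esterifying enzyme once given the same abbreviation, was the next most abundant. It measured 239.56, 216.25, 193.07 and 201.75 TPM in floxed controls 1 to 4 and 193.80, 204.86, 224.75 and 225.02 TPM in knockouts 1 to 4. Here too every knockout lay inside the range of the controls, with floxed control 1 highest and floxed control 3 lowest. The means were 213 ± 20.3 and 212 ± 15.4 TPM (SD; n = 4 in each). The log2 fold change was -0.0018 ± 0.09 (SE; limma adjusted p = 1.00; exact permutation p = 0.943, 2-sided), and the 95% interval of the fold ran from 0.872 to 1.14. For both enzymes, changes beyond these bounds lay outside the interval of the reported fit, and smaller ones were not resolved with 4 libraries per group. After median-of-ratios scaling the 95% interval of the log2 fold change reached down to -0.303 for *Bdh1* and -0.266 for *Acat1*.

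*Slc16a1* (ENSMUSG00000032902) came closest to a separation of the groups. It measured 23.43, 16.27, 19.75 and 18.37 TPM in floxed controls 1 to 4 and 20.43, 22.99, 20.27 and 21.85 TPM in knockouts 1 to 4. All 4 knockouts were above floxed controls 2, 3 and 4, and all were below floxed control 1. The means were 19.5 ± 3.01 and 21.4 ± 1.28 TPM (SD; n = 4 in each). The log2 fold change was 0.14 ± 0.12 (SE; limma adjusted p = 0.871; exact permutation p = 0.257, 2-sided), and the 95% interval of the fold ran from 0.916 to 1.33. Floxed control 1 alone kept the groups from separating. Without it the groups did not overlap and the log2 fold change was 0.23, but the adjusted p was 0.693 in limma. The share of all tested genes without overlap was not counted for those libraries. On leaving out any other library the groups still overlapped. Without floxed control 2 the log2 fold change was 0.06.

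*Slc16a6* (ENSMUSG00000041920) was the least abundant and, in the knockouts, the most variable. It measured 3.74, 3.88, 4.78 and 3.55 TPM in floxed controls 1 to 4 and 3.41, 3.52, 6.12 and 4.96 TPM in knockouts 1 to 4. Knockouts 3 and 4 were above every control, whereas knockouts 1 and 2 were below every control. The coefficient of variation was 13.7% in the controls and 28.6% in the knockouts. For the other genes described it was 6.01% to 7.27% in the knockouts and 8.23% to 15.5% in the controls. In the controls *Slc16a6* was thus not the most variable. The means were 3.99 ± 0.55 and 4.50 ± 1.29 TPM (SD; n = 4 in each). The log2 fold change was 0.12 ± 0.18 (SE; limma adjusted p = 0.942; exact permutation p = 0.657, 2-sided), with a 95% interval of the fold from 0.824 to 1.43. Without knockout 3 it was -0.01. In the GENCODE M21 annotation *Slc16a6* overlaps *Amz2* and *Arsg*, which lie on the opposite strand and stood at 10.27 to 15.31 and 21.20 to 26.49 TPM. The overlap is one of whole gene spans, and exons were not compared. The strand setting of the counting is unknown, and whether these genes affect the level of *Slc16a6* was not tested. *Bdh1* overlaps the antisense gene *Gm15743*, which stood at 0.06 to 0.47 TPM.

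**Figure D1:**
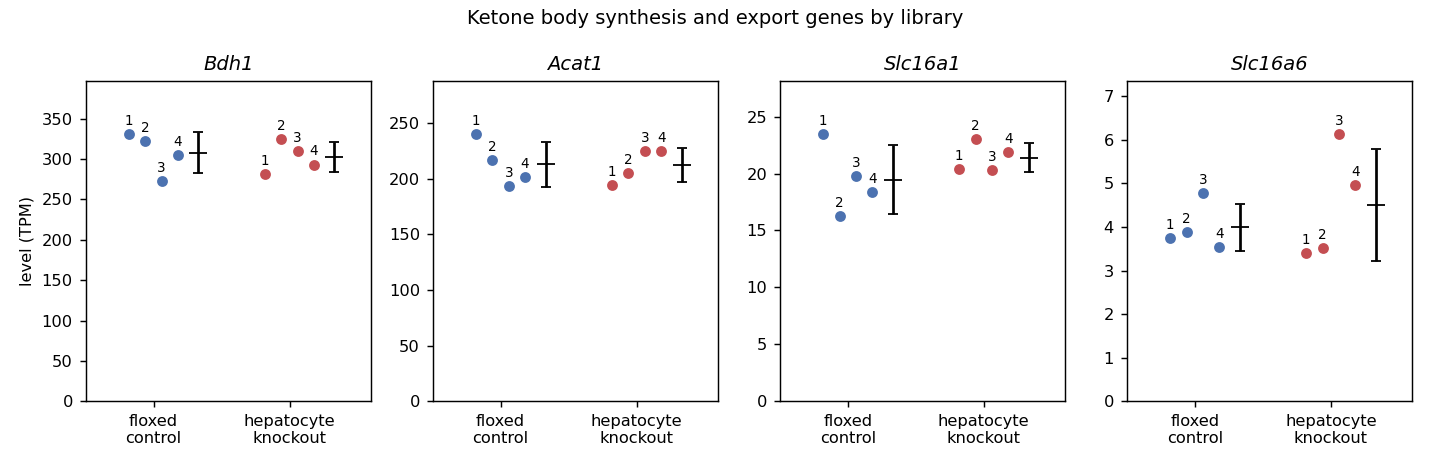
Level in TPM of *Bdh1*, *Acat1*, *Slc16a1* and *Slc16a6* in each of 4 floxed control (blue) and 4 hepatocyte knockout (red) libraries, numbered as in the labels, with the mean and SD of each group in black. The groups overlap in every panel, and the *Slc16a6* knockouts spread from 3.41 to 6.12 TPM.

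The order of the levels, which TPM allows to be compared between genes, was the same in 8 of 8 libraries. *Bdh1* was above *Acat1*, *Acat1* above *Slc16a1* and *Slc16a1* above *Slc16a6*, and the ranges of neighbouring genes did not overlap. Over all libraries the mean of *Bdh1* was 1.43 times that of *Acat1*, the mean of *Acat1* 10.4 times that of *Slc16a1*, and the mean of *Slc16a1* 4.81 times that of *Slc16a6*. Among the 12710 tested genes ordered by mean TPM, *Bdh1* took place 424, *Acat1* 577, *Slc16a1* 3922 and *Slc16a6* 9005. The transcripts of the enzymes were thus far more abundant than those of the transporters.

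Ratios between genes of 1 library do not depend on how that library was scaled. The ratio of *Bdh1* to *Acat1* was 1.38, 1.49, 1.41 and 1.51 in floxed controls 1 to 4 and 1.45, 1.58, 1.38 and 1.303 in knockouts 1 to 4. The knockouts held the lowest and the highest of these values, and the group means were 1.45 ± 0.06 and 1.43 ± 0.12 (SD, n = 4 per group). The ratio of *Slc16a1* to *Slc16a6* ranged from 4.13 to 6.26 in the controls and from 3.31 to 6.53 in the knockouts. The ratio of *Bdh1* to *Slc16a1* was 14.1, 19.8, 13.8 and 16.6 in the controls and 13.8, 14.1, 15.3 and 13.4 in the knockouts, whose range was the narrower one. All of these ratios overlapped between the groups.

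The libraries that were high or low were partly shared between the genes. Floxed control 1 was the highest of the 8 libraries for *Bdh1*, *Acat1* and *Slc16a1*, and knockout 1 was the lowest knockout for *Bdh1*, *Acat1* and *Slc16a6*. Floxed control 4, the library with few markers of other cells, was inside the range of the other controls for *Bdh1*, *Acat1* and *Slc16a1* and was the lowest control for *Slc16a6*. Without it the log2 fold changes were -0.03 for *Acat1*, -0.03 for *Bdh1*, 0.12 for *Slc16a1* and 0.08 for *Slc16a6*, and the adjusted p in limma was between 0.879 and 0.977. None of the 4 genes passed without that library.

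**Figure D2:**
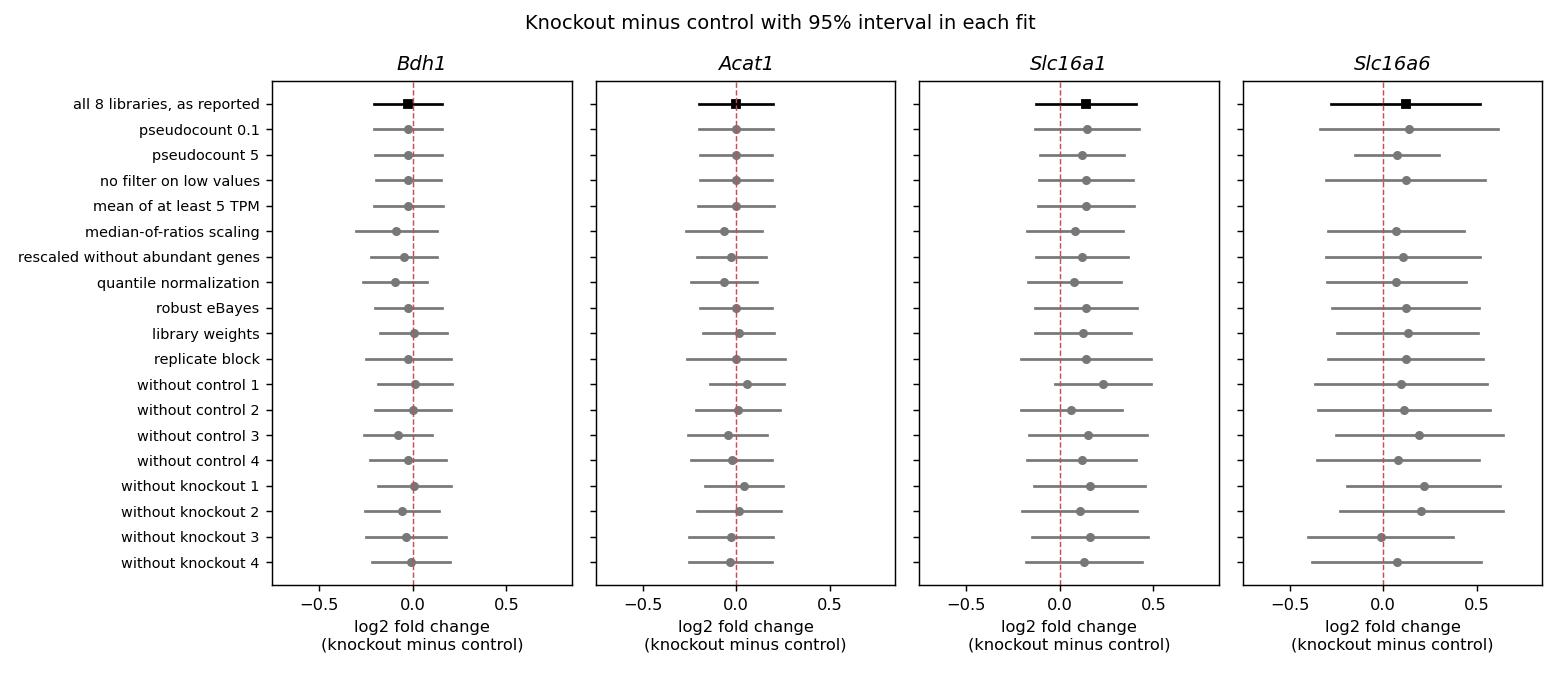
Log2 fold change, knockout minus control, with its 95% interval for each gene in the reported fit (black square) and in each alternative fit or fit without 1 library (grey). Every interval includes 0 (dashed line), and the estimates for *Slc16a1* run from 0.06 to 0.23; *Slc16a6* has no value at a mean of at least 5 TPM because its mean is 4.25 TPM.

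The genes were then set beside others of their pathway, from 8 lists that hold 100 genes in all, of which 92 were tested. In limma, 0 of the 92 passed an adjusted p of 0.05. At an unadjusted p under 0.05, 4 were higher in the knockout (4.35%, beside 5.57% of all tested genes) and 2 lower (2.17%, beside 2.45%). The groups did not overlap in 3 genes that were higher (3.26%, beside 3.29% of all tested genes) and in 3 that were lower (3.26%, beside 1.46%). The median log2 fold change of the 92 was -0.01, beside 0.05 for all tested genes. After median-of-ratios scaling, 2 were higher and 5 lower at an unadjusted p under 0.05. After quantile normalization 2 were higher and 7 lower, with 0 past the adjusted threshold in either case. How many of all tested genes were higher or lower after either scaling was not counted, so these counts have no background beside them. The all-gene median itself shifted on the log2 scale, to -0.00025 after median-of-ratios scaling and 0.0016 after quantile normalization.

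Among the enzymes that make ketone bodies, 5 of 6 listed genes were tested and 0 passed either threshold. In 6 of 18 alternative fits 1 of them, neither *Acat1* nor *Bdh1*, was lower in the knockout at an unadjusted p under 0.05, and 0 passed the adjusted threshold. These were the fits with median-of-ratios scaling, rescaling to the genes of lower level, quantile normalization and library weights, and those without floxed control 4 or knockout 4. The share of all tested genes was not counted in these fits. The log2 fold changes of the 5 in the reported fit lay between -0.15 and 0.20, beside a median of 0.05 for all tested genes. Of these, 4 were below 0 and 1, that of *Bdh2*, was above. *Bdh2*, a cytosolic dehydrogenase gene with a similar name, stood at 5.66 to 12.38 TPM in the controls and 7.61 to 12.47 TPM in the knockouts, far below *Bdh1*. *Hmgcll1* stayed at or under 0.24 TPM in every library and was not tested.

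Of the 4 listed genes of ketone use, 2 were tested and 0 passed either threshold. *Oxct1*, which encodes the transferase that lets organs other than liver burn acetoacetate, measured 9.12, 7.55, 6.67 and 2.50 TPM in floxed controls 1 to 4 and 4.81, 7.20, 5.65 and 6.75 TPM in knockouts 1 to 4. Floxed control 4 was the lowest library, as it was for 6 of 7 marker lists of other liver cells, and the part of these cells in the level of *Oxct1* was not tested. The log2 fold change of *Oxct1* was 0.02 with all libraries and -0.31 without floxed control 4 (adjusted p = 0.996 and 0.708 in limma). *Aacs*, whose product activates acetoacetate in the cytosol for lipid synthesis, stood at 10.32 to 18.88 TPM in the controls and 7.56 to 16.69 TPM in the knockouts. *Oxct2a* and *Oxct2b*, the further transferase genes, did not exceed 0.10 TPM in any library.

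In the thiolase family, to which *Acat1* belongs, 8 of 8 genes were tested, 0 passed the adjusted threshold and 1 was higher at an unadjusted p under 0.05 (12.5%, beside 5.57% of all tested genes). This was *Acat3*, a close copy of the cytosolic thiolase gene *Acat2*, so reads of the pair are hard to assign. *Acat3* measured 209.94, 196.16, 230.55 and 196.66 TPM in floxed controls 1 to 4 and 255.10, 240.39, 233.32 and 228.75 TPM in knockouts 1 to 4, with knockout 4 just below floxed control 3. Its log2 fold change was 0.20 ± 0.08 (SE; limma adjusted p = 0.520). The unadjusted p of *Acat3* was not under 0.05 in 7 of 18 alternative limma fits, at 0.253 after median-of-ratios scaling, 0.090 after quantile normalization, 0.055 with library weights, 0.068 with the replicate number as a block and 0.059 to 0.068 without floxed control 2 or 4 or knockout 1. *Acat2* stood at 28.3 ± 5.04 and 31.6 ± 3.40 TPM (SD, n = 4 per group), and *Acat1* was not ranked against this pair. *Hadhb*, which carries the thiolase of the mitochondrial trifunctional protein, stood at 199.9 ± 22.3 and 180.2 ± 20.1 TPM, and *Acaa1a*, a peroxisomal thiolase gene, at 174 ± 4.08 and 162 ± 26.5 TPM (SD, n = 4 per group).

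Of 18 listed monocarboxylate transporter and chaperone genes, 13 were tested and 0 had an unadjusted p under 0.05, as in 15 of 18 alternative fits. In TPM, *Slc16a7*, which encodes the monocarboxylate transporter MCT2, had a higher mean than *Slc16a1* (27.48 to 38.84 TPM), as did *Slc16a10*, an aromatic amino acid transporter gene (16.47 to 25.93 TPM). The range of *Slc16a1* overlapped those of its neighbours *Slc16a10* and *Slc16a5*, so the order of these 3 was not resolved. The range of *Slc16a6* likewise overlapped that of *Slc16a3*, which encodes the lactate exporter MCT4 (1.76 to 4.78 TPM). *Slc16a4*, *Slc16a8* and *Slc16a14* did not exceed 0.19 TPM, and *Slc5a12* was listed at 0 in every library.

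*Bsg*, which encodes the chaperone basigin that brings MCT1 to the plasma membrane, was the 1 gene of the 13 whose groups did not overlap (7.69%, beside 3.29% of all tested genes that were higher without overlap). It measured 514.11, 497.71, 498.28 and 449.57 TPM in floxed controls 1 to 4 and 516.68, 537.03, 540.23 and 563.55 TPM in knockouts 1 to 4. Knockout 1 exceeded floxed control 1 by little, and the difference did not pass (log2 fold change 0.14 ± 0.07 SE, limma adjusted p = 0.660). The ratio of *Slc16a1* to *Bsg* within a library was 0.040 ± 0.0053 in the controls and 0.040 ± 0.0023 in the knockouts (SD, n = 4 per group).

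**Figure D3:**
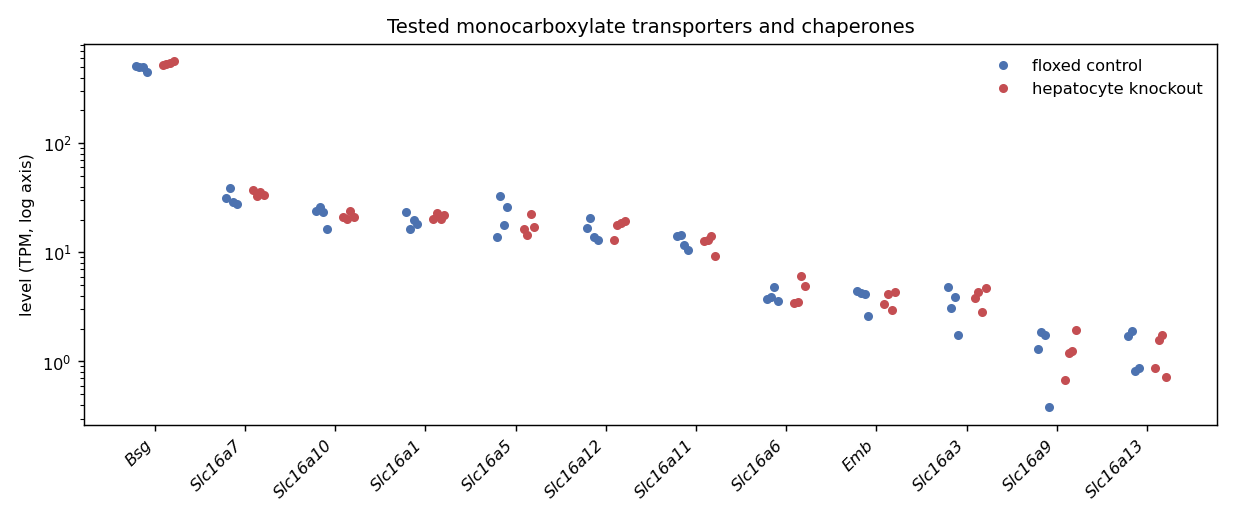
Level in TPM, on a log axis, of tested monocarboxylate transporter and chaperone genes in the 4 floxed control (blue) and 4 hepatocyte knockout (red) libraries, ordered by mean. *Slc16a1* lies amid *Slc16a10* and *Slc16a5*, *Slc16a6* close to *Emb* and *Slc16a3*, *Bsg* lies more than an order of magnitude above every transporter shown, and *Bsg* alone has groups that do not overlap.

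Upstream of ketone synthesis, 21 of 21 genes of fatty acid entry and mitochondrial beta-oxidation were tested. None passed the adjusted threshold in limma, 2 had an unadjusted p under 0.05, both lower in the knockout (9.52%, beside 2.45% of all tested genes), and the groups did not overlap in these 2 (9.52%, beside 1.46%). *Cpt1a*, which encodes the gatekeeper of fatty acid entry into mitochondria, measured 184.78, 193.28, 138.57 and 150.90 TPM in floxed controls 1 to 4 and 104.56, 125.43, 120.63 and 124.55 TPM in knockouts 1 to 4 (log2 fold change -0.48 ± 0.12 SE, adjusted p = 0.212). *Eci2*, an enoyl-CoA isomerase gene, stood at 142.70 to 169.71 TPM in the controls and 116.83 to 134.36 TPM in the knockouts (-0.34 ± 0.08 SE, adjusted p = 0.209). The 95% interval of the log2 fold change was -0.74 to -0.22 for *Cpt1a*, -0.20 to 0.19 for *Acat1* and -0.20 to 0.16 for *Bdh1*, and the difference between these genes was not tested. *Etfa*, an electron transfer flavoprotein gene, stood at 313 ± 19.2 and 339.6 ± 16.3 TPM (SD, n = 4 per group), and the list's median log2 fold change was -0.01.

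Among 15 regulators of ketogenesis, 0 passed the adjusted threshold and 1 was higher at an unadjusted p under 0.05 (6.67%, beside 5.57% of all tested genes). With quantile normalization, and likewise with median-of-ratios scaling, 1 was higher and 2 were lower at that level. Over 18 alternative fits the counts ran from 1 to 3 higher and 0 to 2 lower, and the share of all tested genes was not counted there. *Fgf21*, a fasting hormone gene that promotes ketogenesis, measured 48.39, 35.60, 39.16 and 29.80 TPM in floxed controls 1 to 4 and 57.22, 127.46, 58.80 and 84.05 TPM in knockouts 1 to 4. The groups did not overlap (6.67% of the list, beside 3.29% of all tested genes), knockout 2 was the highest library, and the log2 fold change was 1.02 ± 0.24 (SE; limma adjusted p = 0.204). *Ppara*, the fatty acid sensor that drives ketogenic genes, stood at 26.70 to 39.74 TPM in the controls and 23.82 to 34.55 TPM in the knockouts, and its groups overlapped. *Foxa2*, a further activator of these genes, stood at 16.7 ± 2.31 and 19.9 ± 1.14 TPM, *Hnf4a*, a hepatocyte identity factor, at 181 ± 17.2 and 156 ± 20.5 TPM, and *Foxo1*, which insulin inactivates, at 4.06 ± 0.99 and 3.16 ± 0.53 TPM (SD, n = 4 per group).

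Amino acid breakdown is another source of acetoacetate and acetyl-CoA, and *Acat1* takes part in it. Of 17 genes of branched-chain amino acid breakdown, 0 passed the adjusted threshold in limma and 1 was higher at an unadjusted p under 0.05 (5.88%, beside 5.57% of all tested genes). This was *Mccc1*, a carboxylase subunit of leucine breakdown, at 19.46 to 25.93 TPM in the controls and 25.26 to 31.04 TPM in the knockouts (log2 fold change 0.27 ± 0.12 SE, adjusted p = 0.616). *Mccc1* was not under 0.05 in 6 of 18 alternative fits, among them the one with the replicate number as a block, where the list had 0 such genes, and those without floxed control 3 or 4 or knockout 2, 3 or 4. After quantile normalization 2 genes of the list were lower at an unadjusted p under 0.05, and the share of all tested genes was not counted there. The groups did not overlap in 1 gene that was higher and 1 that was lower (5.88% each, beside 3.29% and 1.46% of all tested genes). *Hsd17b10*, whose product acts just before that of *Acat1* in isoleucine breakdown, was the lower one, at 138.35 to 155.73 and 120.34 to 138.12 TPM (-0.13 ± 0.08 SE, adjusted p = 0.742). *Hibadh*, a valine breakdown gene named after its values were seen, was the higher one, at 148.65 to 158.56 and 159.14 to 172.34 TPM. *Ivd*, the isovaleryl-CoA dehydrogenase gene, stood at 78.9 ± 4.98 and 88.8 ± 5.75 TPM, and *Dld*, a subunit shared by several dehydrogenase complexes, at 49.7 ± 6.34 and 56.2 ± 5.61 TPM (SD, n = 4 per group).

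Genes for other fates of mitochondrial acetyl-CoA gave 0 of 14 past the adjusted threshold in limma and 1 higher at an unadjusted p under 0.05 (7.14%, beside 5.57% of all tested genes). *Pdk4*, a kinase gene that restrains the entry of pyruvate and is induced in fasting, measured 7, 19.64, 7.77 and 5.33 TPM in floxed controls 1 to 4 and 22.66, 12.16, 16.95 and 12.89 TPM in knockouts 1 to 4. Floxed control 2 lay among the knockouts, and the log2 fold change was 0.77 ± 0.33 (SE; adjusted p = 0.606). The unadjusted p of *Pdk4* was under 0.05 in only 7 of 18 alternative fits, and not after median-of-ratios scaling, rescaling or quantile normalization, with robust variance shrinkage or library weights, without a filter, or on leaving out floxed control 1, 3 or 4 or knockout 1 or 3. *Acly*, which makes cytosolic acetyl-CoA, stood at 28.2 ± 6.35 and 34.3 ± 9.09 TPM and *Acot12*, an acetyl-CoA thioesterase gene, at 41.7 ± 5.46 and 37.7 ± 2.05 TPM (SD, n = 4 per group).

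**Figure D4:**
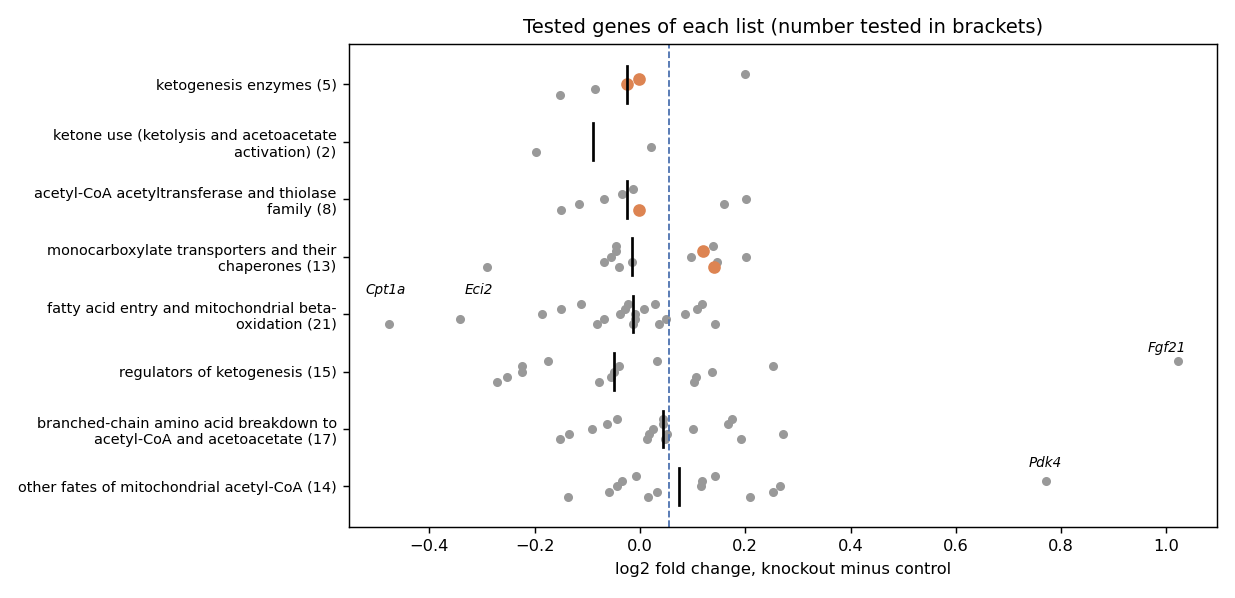
Knockout minus control, as log2 fold change, for every tested gene in the 8 lists, with the ketone body genes described here in orange, each list's median as a black bar and the median of all tested genes (0.05) as a dashed line. The orange points lie between -0.02 and 0.14, and *Fgf21*, *Pdk4*, *Cpt1a* and *Eci2* lie farthest from 0.

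The patterns over the 8 libraries were compared with those of other genes by the mean absolute difference between standardised log2 values, in units of SD, over 8015 or 8016 genes with a mean of at least 5 TPM. For *Acat1* the nearest was *Sdhd*, a subunit gene of succinate dehydrogenase, at 0.14, beside a median of 0.89 over all genes compared. *Sdhd* measured 227.80, 195.22, 176.43 and 183.77 TPM in floxed controls 1 to 4 and 175.23, 191.62, 205.18 and 211.68 TPM in knockouts 1 to 4, which follows the order of *Acat1* in the controls and in the knockouts. The next was *Idi1*, an isoprenoid synthesis gene, at 0.20. *Bdh1* was nearest to *Med25*, a Mediator subunit gene (0.29), and to *Sc5d*, a cholesterol synthesis gene (0.29). For *Slc16a1* these were *Gemin6* (0.21) and *Timm23* (0.24), which serve small nuclear ribonucleoprotein assembly and mitochondrial protein import. *Slc16a6* was nearest to *Ocel1* (0.19) and *Fggy* (0.26). Between the ketone genes themselves the smallest difference was 0.64, between *Acat1* and *Bdh1*, and the largest 1.34, between *Bdh1* and *Slc16a6*. Among so many genes some resemble any pattern of 8 values closely, so these distances are a description.

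**Figure D5:**
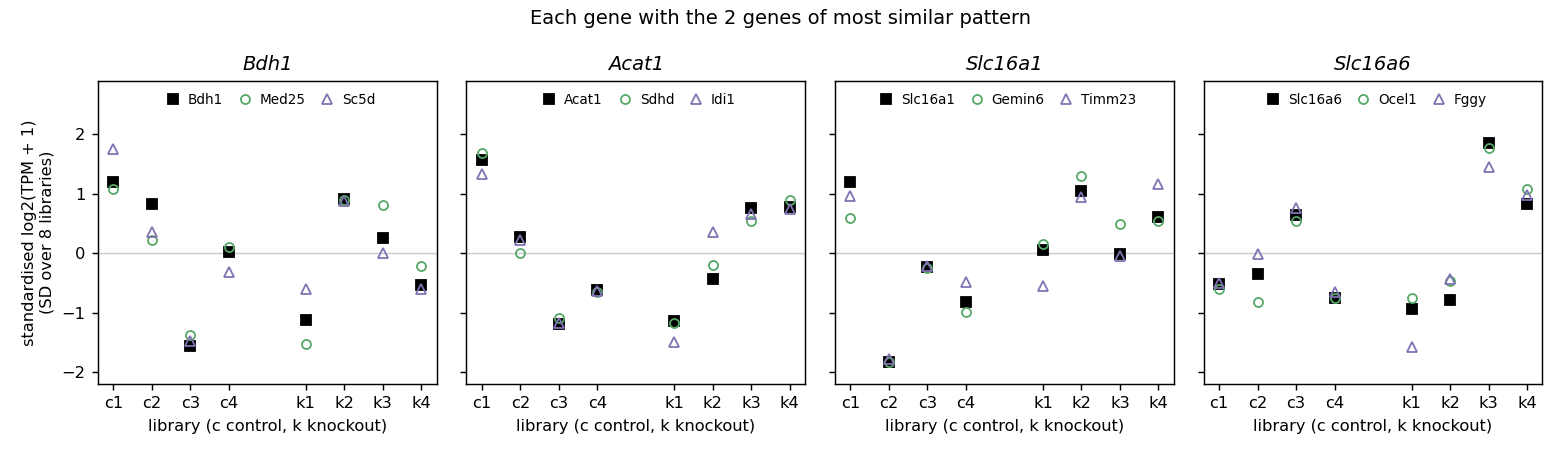
Standardised log2(TPM + 1) in each library (c, floxed control; k, hepatocyte knockout) for each ketone body gene (black squares) and the 2 genes with the smallest mean absolute difference from it (open symbols). The *Acat1* panel shows the closest match, *Sdhd*, with a mean difference of 0.14 SD.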

How the data were processed

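The table holds RNA sequencing of 8 liver samples, 4 per genotype, grouped and numbered by their titles. The library kit was stranded and took total RNA, per the labels' protocols. The authors deposited TPM values for 55416 mouse gene identifiers, with 2 decimals. RSEM 1.3.3 and the human build GRCh38.p13 stand in the submitters' processing notes. No source used here names the aligner, annotation or strand setting, and no coordinates are printed. Totals were 994563 to 995449 TPM per library, and depth is unknown.

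Symbols were matched for 52083 identifiers. A gene was tested when 4 or more libraries reached 1 TPM, on log2(TPM + 1), a pseudocount of 1, in limma 3.58.1 under R 4.3.3 (lmFit, eBayes with trend), with Benjamini-Hochberg adjustment over all 12710 genes. The single-gene permutation tests were exact. The members and lists were chosen with earlier results of these data known. Named were *Smpd3*, the 4 ketone genes, up to 4 genes of smallest p per list, all genes of the first 2 lists, and the 2 nearest genes by pattern; a few members of the lists enter the counts only and are not reported here. Alternatives were other pseudocounts, filters and scalings, library weights, robust eBayes, a block for the replicate number, and fits without each library. The fit was tested on simulated data.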

Additional observations from a re-analysis of the deposited data

How the results depend on the processing

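*Acat1*, *Bdh1*, *Slc16a1* and *Slc16a6* did not pass in any of 71 alternative fits, and no unadjusted p was under 0.05. *Slc16a6* has no value at a mean of at least 5 TPM. With library weights *Acat1* was 0.012 and *Bdh1* 0.0043 on the log2 scale, with the sign turned. Median-of-ratios scaling gave -0.065 for *Acat1*, -0.087 for *Bdh1*, 0.079 for *Slc16a1* and 0.067 for *Slc16a6*. Quantile normalization gave -0.065, -0.096, 0.077 and 0.069 for the same genes. Leaving out single libraries gave -0.046 to 0.057 for *Acat1*, -0.080 to 0.011 for *Bdh1*, 0.062 to 0.23 for *Slc16a1* and -0.015 to 0.22 for *Slc16a6*. The 13 genes past the threshold became 8 and 6 with pseudocounts of 0.1 and 5, 0 without a filter, 25 after rescaling to the genes left without the mitochondrial genome and the 20 of highest level, 20 with library weights, and 0 to 16 when a library was left out (0 on leaving out floxed control 1 or knockout 3, 3 for floxed control 4, 2 for knockout 2, 5 for knockout 1); the cause was not tested. *Smpd3* kept its direction in all 18 alternatives and did not pass in 7 of them. With the replicate number as a block, 0 genes passed and the log2 fold changes of the 4 ketone genes were unchanged (adjusted p = 1.00 in limma for each). Same-numbered libraries did not deviate together (correlations -0.20 to 0.03, and 0 of 4 numbers matched best with themselves). The labels give no meaning to the number, and these correlations over all genes cannot decide whether same-numbered libraries were paired. *Oxct1* turned to -0.013 with a pseudocount of 5, -0.026 after median-of-ratios scaling, -0.036 after quantile normalization and -0.14 with library weights, and ran from -0.31 to 0.20 without single libraries. *Aacs* turned to 0.012 with library weights. The standard errors rest on the spread of 4 libraries per group, which limma adjusts with the trend over all tested genes. Depth is unknown for TPM, and its part in that spread was not tested.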
